A study of Mus musculus with 6 samples.

Results

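The first step of the conversion of mouse embryonic stem (ES) cells from serum to 2i+vitC medium was described by comparing RNA-seq of the 2 samples taken at D6 with that of the 2 samples taken at D0. These are 4 of the 6 samples of the series, the other two having been taken at D13, and the comparison covered all 12626 genes of the deposited tables. All cells were wild-type J1, a single established ES cell line, and were kept on gelatin without feeder cells. D0 cells had grown in serum medium, that is Glasgow medium with fetal bovine serum and leukemia inhibitory factor (LIF). D6 cells had spent 6 days in 2i+vitC, a serum-free mixture of neurobasal and DMEM/F12 media with the Ndiff Neuro2 and B27 supplements, the Gsk3 inhibitor CT-99021, the MEK inhibitor PD0325901 and vitamin C. Both media contained LIF. The base medium, the serum, the supplements, the inhibitors, vitamin C and the time in culture all changed together, so their effects cannot be told apart.

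In serum, ES cells signal through the MEK and ERK kinases, driven largely by FGF4 and serum factors, and part of the population drifts towards the transcription programme of the formative and primed epiblast. Blocking MEK closes that branch, and blocking GSK3 stabilises beta-catenin, which relieves the repression exerted by the TCF3 factor on pluripotency genes. Cells in 2i stay close to the naive state of the preimplantation epiblast and lose much of their DNA methylation, while vitamin C is a cofactor of the TET dioxygenases and of JmjC histone demethylases. The comparison therefore asks which gene functions rise and which fall in the days when serum signalling is withdrawn and DNA methylation is being lost.

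Between 75139650 and 83688345 reads lay on genes in each of the 4 samples, and values are given as CPM (read counts scaled to a common library size) or as the log2 of the CPM. Genes were called when limma gave a change of over 4-fold with a Benjamini-Hochberg adjusted p under 0.05, and a 2-fold minimum was used as a second, wider call. The p-values rest on 2 biological replicates a day and measure the spread between these samples. The D0 replicates lay further apart than the D6 replicates, with a median absolute difference of 0.344 against 0.145 on the log2 scale and 10.2% against 0.96% of genes over 2-fold apart. Every gene in the files reached about 1 CPM in at least 3 of the 6 samples, so a gene active in serum alone and silent on both later days could not be among them. The general markers of ES cells were present on both days. Pou5f1, the central pluripotency factor, had 982 and 793 CPM at D0 and 792 and 831 CPM at D6, and Sox2, its partner, had 451 and 562 and 415 and 389 CPM.

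By D6, 746 genes had risen by over 4-fold (5.91% of the genes tested) and 492 had fallen by over 4-fold (3.9%). The wider call took in 1492 genes that rose (11.8%) and 1120 that fell (8.87%). The 2 directions started from different levels. Of the genes that rose, 416 had a mean below 1 CPM in serum and 330 had a mean of 1 CPM or more, while 393 of the 492 genes that fell still had 1 CPM or more at D6 and 99 did not. The row filter bears on this difference, since it kept genes that were off at D0 and on at both later days but not the reverse, and among the 11742 genes with at least 1 CPM on both days 330 rose and 392 fell. Changes of over 16-fold were reached by 229 genes upwards and by 62 downwards. The genes that rose together held 0.48% and 0.58% of all gene CPM in the D0 samples and 3.5% and 3.3% in the D6 samples, and the genes that fell went from 2.41% and 2.25% to 0.32% and 0.36%. Across the whole table the median of the log2 fold changes was -0.01.

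**Figure D1:**
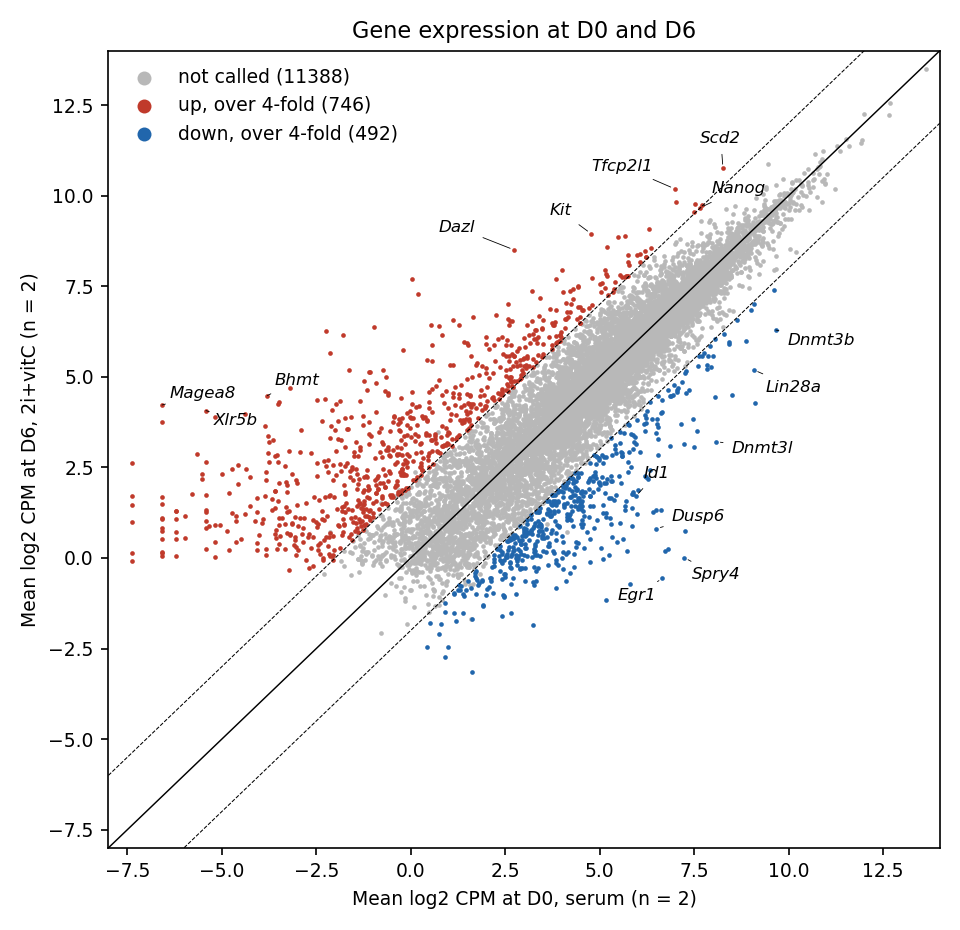
Mean log2 CPM of each of the 12626 genes at D0 (serum, x axis) and at D6 (2i+vitC, y axis), with the 746 genes that rose and the 492 that fell by over 4-fold (limma adjusted p under 0.05) in colour. Rising genes reach down to the left edge, where a serum sample held 0 reads, whereas falling genes such as Spry4 and Dusp6 start from well-expressed levels.

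Genes of the ERK branch were among the largest falls. Spry4, a feedback inhibitor of receptor tyrosine kinase signalling, had 199.9 and 115 CPM in the D0 samples and 0.463 and 2.18 CPM in the D6 samples. Its log2 fold change was -7.24 (SE 0.655, limma adjusted p = 0.000135), the largest fall of any gene. Egr1, an immediate-early transcription factor induced by ERK, went from 75.6 and 136 CPM to 1.07 and 0.429 CPM (-7.22, SE 0.525, adjusted p = 5.44e-05). The ERK phosphatases followed the same course. Dusp4 fell from 39.4 and 77.8 CPM to 0.653 and 0.558 CPM (-6.52, adjusted p = 2.57e-05), and Dusp6, which removes phosphate from ERK itself, fell from 108 and 75.9 CPM to 1.27 and 2.42 CPM (-5.69, adjusted p = 3.37e-05). In each of these 4 genes both serum samples lay far above both D6 samples.

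Of 27 ERK feedback and immediate-early genes with a row, 17 fell by over 2-fold, 12 of them by over 4-fold. The shares over all genes were 8.87% and 3.9%. The median log2 fold change of the list was -1.78, against -0.01 over all genes. Beside those above, the strongest falls were in Myc (-4.78), the growth-driving transcription factor, in the ETS factor Etv4 (-4.16), in the Sprouty-related inhibitor Spred3 (-3.67), in Phlda1 (-2.96), in the urokinase receptor gene Plaur (-2.94), in the AP-1 subunit Jun (-2.93) and in Spry1 (-2.70). The response was not uniform. Etv5, a close relative of Etv4, had 395 and 438 CPM at D0 and 297 and 386 CPM at D6 and did not pass the test (-0.29, SE 0.243, adjusted p = 0.437), and the ERK target Ccnd1, which encodes cyclin D1, had overlapping values of 199 and 118 and 119 and 185 CPM. Spry2 fell less than Spry4 and Spry1, from 132 and 94.2 CPM to 37.2 and 36.4 CPM (-1.60, adjusted p = 0.00181).

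Upstream of this branch, the FGF ligands and receptors moved in both directions. Fgf4, the autocrine ligand of ES cells, rose from 109.5 and 198 CPM to 354 and 279 CPM (1.09, limma adjusted p = 0.0291), short of 4-fold. Fgfr2, a receptor, fell from 30.4 and 64.8 CPM to 1.896 and 0.9695 CPM (-5.03), and the ligands Fgf15 (-4.62) and Fgf17 (-4.19) fell by over 4-fold with it. Fgf3 (2.53) and Fgf10 (2.44) rose, from D0 values of at most 2.20 CPM. The call of 1 of these 5 genes was lost without a library, that of Fgf10 (1.62 without D0 replicate 2 and 2.18 without D6 replicate 2, adjusted p = 0.0638).

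The genes of the formative and primed epiblast, which mark the exit from the naive state, fell as well. Of 19 with a row, 11 fell by over 2-fold and 8 by over 4-fold, against 8.87% and 3.9% of all genes. Their median log2 fold change was -1.70. Pou3f1, a POU factor of the early epiblast, had 59.95 and 21.8 CPM in serum and 0.336 and 0.605 CPM at D6 (-6.32, SE 0.609, adjusted p = 0.000177). Sox4 went from 30.5 and 27.7 CPM to 1.73 and 1.79 CPM (-4.04), Sox3 fell by 3.12 on the log2 scale, and Otx2, which helps to drive cells out of the naive state, went from 53.01 and 103 CPM to 16.3 and 14.5 CPM (-2.26). Lefty1, a Nodal antagonist, fell from 102 and 121 CPM to 34.3 and 18.01 CPM (-2.16, adjusted p = 0.0155). Fgf15, Etv4 and Lef1 complete the 8. Of these calls, 2 depended on a library, namely those of Otx2 (-1.78 without D0 replicate 2) and Lefty1 (-2.29 without D0 replicate 1, adjusted p = 0.0653 and -2.04 without D0 replicate 2, adjusted p = 0.0858 and -1.70 without D6 replicate 2).

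The naive pluripotency factors rose in part. Of 21, 9 rose by over 2-fold and 4 by over 4-fold, against 11.8% and 5.91% of all genes, while 4 fell by over 2-fold. The median log2 fold change was 1.09. D0 replicate 1 had the higher value in 2 of the 21, and 7 were over 2-fold apart between the D0 replicates. The median log2 difference, D0 replicate 1 minus D0 replicate 2, was -0.69. Tbx3 gained most, from 11.4 and 18.1 CPM to 196 and 218 CPM (3.85, SE 0.256, limma adjusted p = 3.37e-05). Tfcp2l1, a target shared by LIF and beta-catenin signalling, went from 85.1 and 188 CPM to 1100 and 1245 CPM (3.21), and Prdm14, which represses FGF receptor and de novo methyltransferase genes, from 7.24 and 10.99 CPM to 60.02 and 61.1 CPM (2.76). Nanog rose from 189 and 216 CPM to 812 and 811 CPM (2.00, adjusted p = 0.000294). Klf4 stayed just short of 4-fold (1.92), and Esrrb, with D0 values of 156 and 436 CPM, did not pass the test (1.19, adjusted p = 0.0714). Klf2 and Zfp42 had D6 values inside the range of their D0 values. Among the factors that fell, Rarg, a retinoic acid receptor, went from 178 and 136 CPM to 29.9 and 42.8 CPM (-2.12). The number of naive factors that rose by over 4-fold was 3 when D0 replicate 1 was left out and 7 when D0 replicate 2 was, and calls were lost for Nanog (1.91 without D0 replicate 1) and Rarg (-1.92 without D0 replicate 1 and -1.86 without D6 replicate 1).

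Within the core network the picture was different. Of 11 core pluripotency factors, 10 had a lower mean at D6, and 3 fell by over 4-fold. Lin28a, an RNA-binding protein that blocks let-7 maturation, fell from 652 and 451 CPM to 25.2 and 52.8 CPM (-3.89, SE 0.349, adjusted p = 0.000128), and its paralog Lin28b fell from 116 and 83.5 CPM to 14.4 and 17.8 CPM (-2.61). Utf1, a chromatin-bound pluripotency factor, fell from 220.0 and 217 CPM to 41.3 and 62.7 CPM (-2.10). Pou5f1 (-0.12, adjusted p = 0.81) and Sox2 (-0.33, adjusted p = 0.323) did not pass the test. Among LIF and STAT3 targets, Socs3 rose from 76.5 and 26.1 CPM to 115 and 129.7 CPM (1.45) and Bcl3 from 26.4 and 8.49 CPM to 51.6 and 48.1 CPM (1.74), both by less than 4-fold. Stat3 itself had overlapping values (0.17, adjusted p = 0.72). The call of Utf1 (-1.80 without D6 replicate 1) needed that library.

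**Figure D2:**
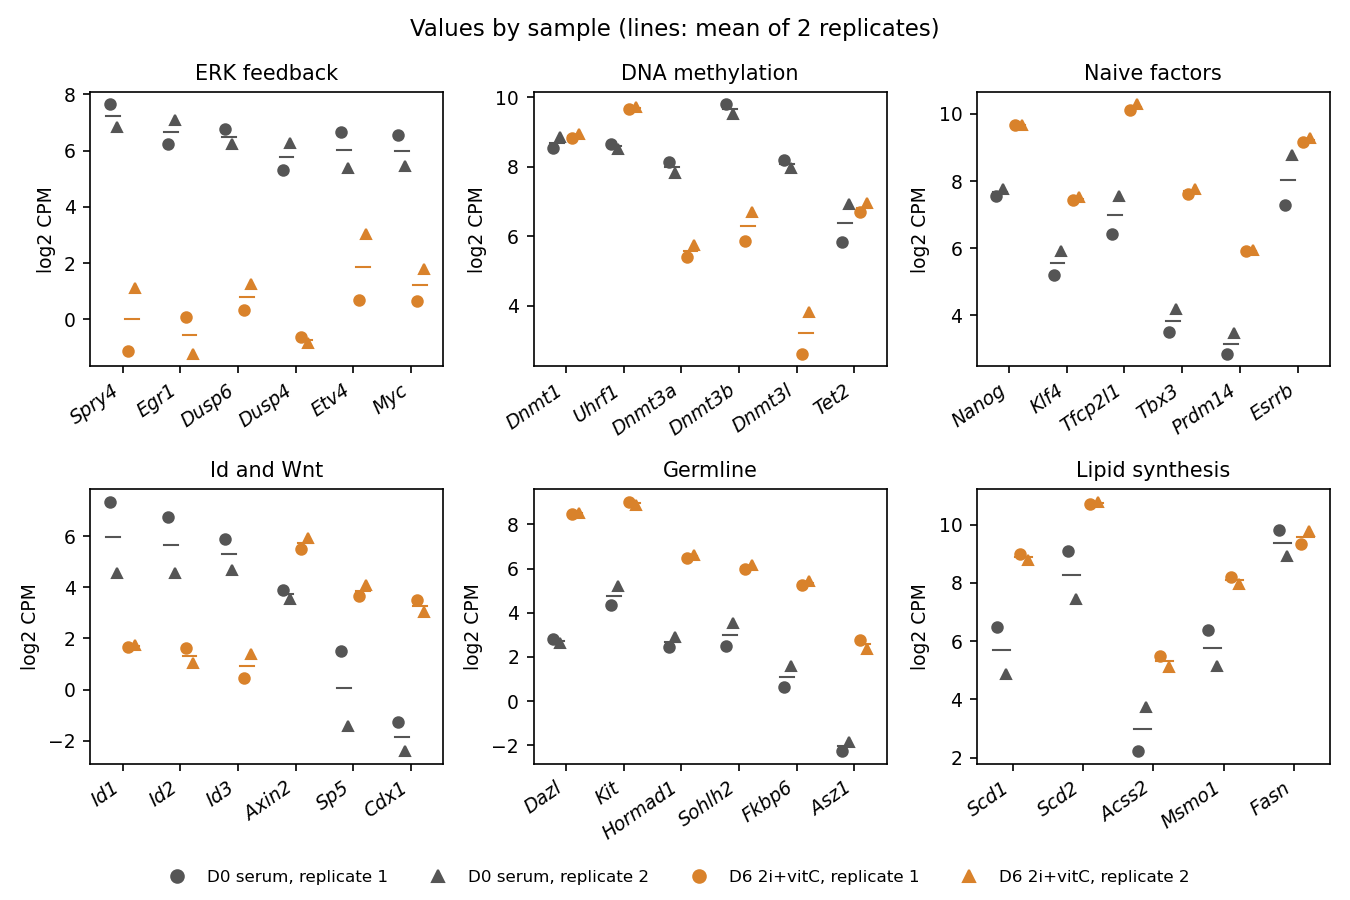
Log2 CPM (y axis) of single genes in each of the 4 samples, with D0 serum and D6 2i+vitC replicates as points. The points of the 2 days do not overlap in any gene shown that was called, and the D0 replicates of Id1 lie further apart than its D6 replicates.

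Targets of beta-catenin moved in both directions, and the part of the Gsk3 inhibitor was not tested. Of 20 Wnt and beta-catenin genes, 7 rose and 3 fell by over 2-fold, against 11.8% and 8.87% of all genes. Their median log2 fold change was 0.04, and 10 had a higher and 10 a lower mean at D6. Cdx1, a homeobox gene switched on by Wnt in the primitive streak, rose from 0.412 and 0.189 CPM to 11.4 and 8.16 CPM (5.11, SE 0.699, limma adjusted p = 0.00102). Sp5 rose from 2.87 and 0.372 CPM to 12.6 and 16.96 CPM (3.82, SE 0.789), with a wide gap between its D0 replicates. Axin2, the standard feedback target, rose from 15.1 and 11.8 CPM to 45.1 and 61.4 CPM (1.98, adjusted p = 0.00384), and Sfrp1, a secreted Wnt antagonist, from 35.5 and 30.2 CPM to 181 and 148 CPM (2.32). The TCF-family factor Lef1 went the other way, from 30.6 and 11.1 CPM to 1.81 and 2.71 CPM (-3.06), as did the receptor Fzd7, from 151 and 183 CPM to 23.3 and 26.2 CPM (-2.75), and Nkd2 (-2.81).

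The Id genes, which encode inhibitors of basic helix-loop-helix factors and answer to the BMPs of serum, fell together. Id1 had 163 and 23.5 CPM at D0 and 3.17 and 3.33 CPM at D6, Id2 had 108 and 23.6 and 3.101 and 2.05 CPM, and Id3 had 59.4 and 25.8 and 1.36 and 2.65 CPM. The serum replicates of Id1 and Id2 lay over 4-fold apart, and both were above every D6 value. The log2 fold changes were -4.25 (SE 0.758, limma adjusted p = 0.00393), -4.33 (SE 0.616, adjusted p = 0.00123) and -4.36 (SE 0.621, adjusted p = 0.00123). Bmp4 fell by less than 4-fold (-1.85), while the ligand Bmp7 (2.08) and the receptor-regulated Smad9 (2.37) rose from D0 values under 4 CPM. Among the 18 Nodal and activin genes, Skil, a repressor of Smad signalling, fell from 422 and 274 CPM to 60.5 and 59.03 CPM (-2.51), and Nodal had 62.7 and 66.95 CPM and 62.1 and 62.5 CPM (-0.06). Calls were lost without a library for Bmp7 (1.72 without D0 replicate 1 and 1.99 without D6 replicate 1) and Smad9 (1.98 without D0 replicate 2).

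Part of the Notch ligands and modifiers fell. Of 17 Notch pathway genes, 6 fell by over 2-fold and 5 by over 4-fold, against 8.87% and 3.9% of all genes. The ligand Dll1 went from 6.96 and 6.88 CPM to 0.818 and 0.311 CPM (-3.78), the ligand Jag2 from 44.7 and 42.3 CPM to 7.07 and 7.84 CPM (-2.55), and the glycosyltransferases Lfng (-3.96) and Mfng (-2.36), which tune the receptor, fell with them. The repressor Bhlhe41 fell from D0 values of 1.19 and 2.98 CPM (-3.64). Hes1, the main Notch target, rose from 15.8 and 18.7 CPM to 50.3 and 53.6 CPM (1.59, adjusted p = 0.00132). Among 11 genes of the retinoic acid response, Stra8, a gatekeeper of meiosis, rose from 0.7297 and 1.66 CPM to 8.92 and 6.14 CPM (2.75), and the binding protein gene Crabp2 fell from 11.7 and 3.66 CPM to 1.74 and 0.875 CPM (-2.40). The Crabp2 call did not hold for all libraries, as seen in Crabp2 (-1.57 without D0 replicate 1 and -1.91 without D6 replicate 2).

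The enzymes that write DNA methylation split by function. The de novo methyltransferases fell. Dnmt3b went from 891 and 736 CPM to 58.6 and 105 CPM (-3.37, SE 0.315, limma adjusted p = 0.000158), Dnmt3a from 283 and 228 CPM to 42.6 and 53.4 CPM (-2.41, SE 0.251), and their cofactor Dnmt3l from 294 and 251 CPM to 6.12 and 14.01 CPM (-4.87, SE 0.394). The maintenance enzyme Dnmt1 had 373 and 464 CPM and 456 and 490.1 CPM and did not pass the test (0.18, adjusted p = 0.622). The transcript of Uhrf1, which guides Dnmt1 to replicated DNA, rose from 405 and 367 CPM to 816 and 851 CPM (1.11, adjusted p = 0.00598). The same 3 de novo genes fell by over 4-fold whichever D0 or D6 library was left out, when 15 writers and readers were counted.

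Of 12 DNA demethylation genes, 2 rose and 1 fell by over 2-fold, against 11.8% and 8.87% of all genes, and 9 were not called. Tet1 had 609 and 644 CPM at D0 and 392 and 499 CPM at D6 (-0.50, adjusted p = 0.354), and Tet2, with 57.2 and 123 CPM and 104 and 124 CPM, did not pass the test either (0.44, adjusted p = 0.435). Idh1, which makes the 2-oxoglutarate used by these dioxygenases, rose from 86.8 and 65.6 CPM to 323 and 313 CPM (2.07, adjusted p = 0.000262), and Idh2 rose by less than 4-fold (1.77). Slc23a1, a transporter of vitamin C, fell from 20.3 and 26.5 CPM to 2.81 and 3.202 CPM (-2.95, adjusted p = 0.000258) in cells given vitamin C in the medium. The Idh1 call missed 4-fold in Idh1 (1.87 without D0 replicate 2).

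Among 30 genes of H3K9 methylation and silencing, 29 had no change of over 2-fold that passed the test. Setdb1 had a log2 fold change of 0.46 and its partner Trim28 of -0.23, and Suv39h1 fell from 60.7 and 41.2 CPM to 21.3 and 18.8 CPM (-1.32, adjusted p = 0.00578). Of 35 Polycomb genes, 4 rose and 3 fell by over 2-fold, close to the shares of all genes (11.8% and 8.87%). Phc1, a subunit of the canonical repressive complex, fell from 623 and 996 CPM to 149 and 189 CPM (-2.23), and the chromobox gene Cbx8 rose (2.08). The core subunits Ezh2 (0.35) and Suz12 (0.71) did not pass the test. The calls that a library could undo were those of Phc1 (-1.89 without D0 replicate 2) and Cbx8 (1.41 without D0 replicate 2 and 1.89 without D6 replicate 2).

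Of the 12 largest rises, 8 were in the Magea, Xlr and Rhox families, testis-restricted or reproductive genes of the X chromosome that were near 0 reads in serum. Magea8, a cancer-testis antigen of the melanoma-antigen family, had 0 and 1 reads in the D0 samples and 1335 and 1750 reads in the D6 samples. This is a ratio of 3126 with a 95% counting interval of 561 to 123491, which covers counting error only. Magea5 went from 0 and 1 reads to 962 and 1271 reads. Magea2 had 0 reads in both D0 samples and 446 and 572 reads at D6, at least 344-fold higher when 3 reads over the D0 group are taken as the floor, and Magea6 went from 0 and 0 to 204 and 349 reads, at least 187-fold higher. Of 8 Magea and Mageb genes, 7 rose by over 4-fold. The exception was Mageb16, which was already expressed in serum and had 21.2 and 15.6 CPM at D0 and 24.8 and 24.6 CPM at D6 (0.44).

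The Xlr family, chromatin-associated proteins of lymphoid and germ cells, had 10 members with a row, all called as rising. Members near 0 reads in serum could enter the deposited tables only by being high on both later days, so counts of rising members among the Xlr, Magea, Rhox, Pramel and Nlrp genes with a row are largely set by that filter. Xlr5b had 2 and 1 reads at D0 and 1216 and 1554 reads at D6, and Xlr5a had 1 and 3 reads and then 1088 and 1360. Xlr4c went from 0.0444 and 0.0516 CPM to 16.5 and 14.9 CPM (8.36, SE 0.358, limma adjusted p = 8.09e-06). Xlr3a was already detected in serum, at 0.882 and 2.06 CPM, and reached 42.5 and 46.7 CPM (5.05). The median log2 fold change of the family was 7.78. Copies of the Magea, Xlr and Rhox genes are nearly identical in places, and reads of a copy may have been counted on another, so values of single copies are uncertain.

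In the Rhox cluster of reproductive homeobox genes, 11 of 14 members rose by over 4-fold and 1 fell. Rhox2g had 0 reads in both D0 samples and 201 and 254 reads at D6, at least 154-fold higher. Rhox5, the founding member, was expressed in serum at 14.7 and 17.2 CPM and reached 256 and 243 CPM (3.97, SE 0.26, adjusted p = 3.37e-05). Rhox6 and Rhox9 went the other way, from 6.29 and 4.004 CPM to 1.38 and 0.781 CPM (-2.27) and from 6.33 and 4.68 CPM to 1.88 and 1.92 CPM (-1.52). On the log2(CPM + 1) scale, which shrinks changes of weakly expressed genes, 2 of the 14 rose by over 4-fold. The single member that fell by over 4-fold did not do so in every subset of the libraries, with Rhox6 (-1.95 without D0 replicate 1 and -1.87 without D6 replicate 2).

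Pramel and Pramef genes, which include regulators of pluripotent and germ cells, gave 4 of 7 members up by over 4-fold. Pramel6 rose from 0.958 and 0.189 CPM to 26.8 and 32.3 CPM (6.11, SE 0.652) and Pramel7 from 0.857 and 0.384 CPM to 7.604 and 7.597 CPM (3.73). Pramef17 had 0 and 5 reads at D0 and 542 and 651 reads at D6. Of 7 Nlrp genes, known from oocytes, 6 rose by over 2-fold and Nlrp4a (4.33), Nlrp4c (4.09) and Nlrp4f (3.70) by over 4-fold. These families also contain close copies, with the same uncertainty for single members.

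Genes of the germ line and of meiosis rose in part. Of 58 with a row, 22 rose by over 2-fold and 17 by over 4-fold, against 11.8% and 5.91% of all genes, and 4 fell. D0 replicate 1 had the higher value in 17 of the 58, and 17 were over 2-fold apart between the D0 replicates. The list held 75 genes, and one silent at D0 could have a row only if it was expressed on both later days. Dazl, an RNA-binding protein required for germ cell development, had 7.11 and 6.21 CPM in serum and 356 and 370.4 CPM at D6, with replicates close together on both days (SE 0.201). Kit, the receptor of stem cell factor, rose from 20.2 and 36.8 CPM to 519 and 474 CPM (4.18, adjusted p = 7.18e-05). Hormad1, an axis protein of meiotic chromosomes, went from 5.55 and 7.38 CPM to 89.5 and 98.5 CPM (3.88), and Smc1b, the meiotic cohesin subunit, from 1.24 and 11.2 CPM to 33.9 and 45.4 CPM (3.40, SE 0.803). Genes of the piRNA pathway did not move as a block. Asz1 rose from 0.209 and 0.281 CPM to 6.75 and 5.19 CPM (4.61) and Fkbp6 from 1.57 and 2.996 CPM to 38.3 and 42.7 CPM (4.22), whereas Tdrd5 fell from 9.78 and 10.4 CPM to 1.402 and 1.39 CPM (-2.85) and Ddx4 from 41.2 and 18.3 CPM to 7.76 and 8.67 CPM (-1.74). Sycp3, a component of the synaptonemal complex, had overlapping values (0.07, adjusted p = 0.892). A call was lost for Smc1b (1.80 without D0 replicate 1).

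The promoters of a few of these genes show how their CpG content differs. Each line gives the 250 bases before the start of the gene, read from RefSeq on GRCm38.p6 (the mm10 build used for the files), 5′ to 3′ on the strand of the gene, with every CpG in capitals. Magea8 (chrX:154995851-154996100, minus strand, 7 CpG), Xlr4c (chrX:73243131-73243380, minus strand, 5 CpG) and Rhox2a (chrX:37244742-37244991, plus strand, 5 CpG) stand for the families that rose from near 0 reads. Dazl (chr17:50293621-50293870, minus strand, 20 CpG) stands for germline genes, and Dusp6 (chr10:99262981-99263230, plus strand, 16 CpG) for the genes that fell.
Magea8: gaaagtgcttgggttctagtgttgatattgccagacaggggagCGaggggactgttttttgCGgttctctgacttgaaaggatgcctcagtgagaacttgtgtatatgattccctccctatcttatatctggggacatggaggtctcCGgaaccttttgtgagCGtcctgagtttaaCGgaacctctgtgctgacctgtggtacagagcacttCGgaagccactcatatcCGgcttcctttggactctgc
Xlr4c: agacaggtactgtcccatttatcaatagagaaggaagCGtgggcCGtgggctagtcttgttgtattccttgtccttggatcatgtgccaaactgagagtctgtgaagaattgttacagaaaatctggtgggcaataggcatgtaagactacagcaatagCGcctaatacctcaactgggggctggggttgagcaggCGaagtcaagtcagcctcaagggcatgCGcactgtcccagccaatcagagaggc
Rhox2a: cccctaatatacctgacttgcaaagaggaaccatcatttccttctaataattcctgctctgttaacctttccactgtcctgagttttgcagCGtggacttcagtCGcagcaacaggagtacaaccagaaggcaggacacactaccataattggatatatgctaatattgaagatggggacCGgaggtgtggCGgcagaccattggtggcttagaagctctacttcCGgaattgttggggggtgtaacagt
Dazl: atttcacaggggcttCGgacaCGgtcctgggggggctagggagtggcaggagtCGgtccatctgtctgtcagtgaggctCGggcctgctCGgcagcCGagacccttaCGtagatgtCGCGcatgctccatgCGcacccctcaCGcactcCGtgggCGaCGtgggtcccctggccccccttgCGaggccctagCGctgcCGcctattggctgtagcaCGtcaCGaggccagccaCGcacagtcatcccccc
Dusp6: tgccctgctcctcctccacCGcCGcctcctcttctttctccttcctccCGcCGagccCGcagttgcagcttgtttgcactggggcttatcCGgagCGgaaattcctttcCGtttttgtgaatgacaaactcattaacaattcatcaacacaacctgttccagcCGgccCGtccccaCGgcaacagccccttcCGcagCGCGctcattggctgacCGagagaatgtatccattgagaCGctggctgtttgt

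These sequences were compared with all promoters by counting CpG in 300-base windows, from 250 bases before to 50 bases after the start. A window was found for 9094 of the tested genes, with a median of 21 CpG. Genes that rose by over 4-fold had a median of 9 (n = 493), genes that fell a median of 21 (n = 339), and genes with no call a median of 22 (n = 8262). At most 5 CpG were present in 33.9% of the windows of genes that rose, in 8.6% of those of genes that fell and in 6.4% of those of uncalled genes. The level in serum moved with this. Rising genes below 1 CPM at D0 had a median of 7 CpG (n = 263), those at 1 CPM or more a median of 14 (n = 230), and uncalled genes below 1 CPM at D0 a median of 12 (n = 144). The rising members of the germline list had a median of 16 (n = 16), and those of the Magea, Mageb, Rhox, Xlr, Pramel and Pramef families a median of 7 (n = 30). The windows of near-identical copies are not independent, Rhox2a and Rhox2c for example sharing 249 of 250 upstream bases. These counts are a description of the gene sets, and the part of CpG content in the changes was not tested.

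**Figure D3:**
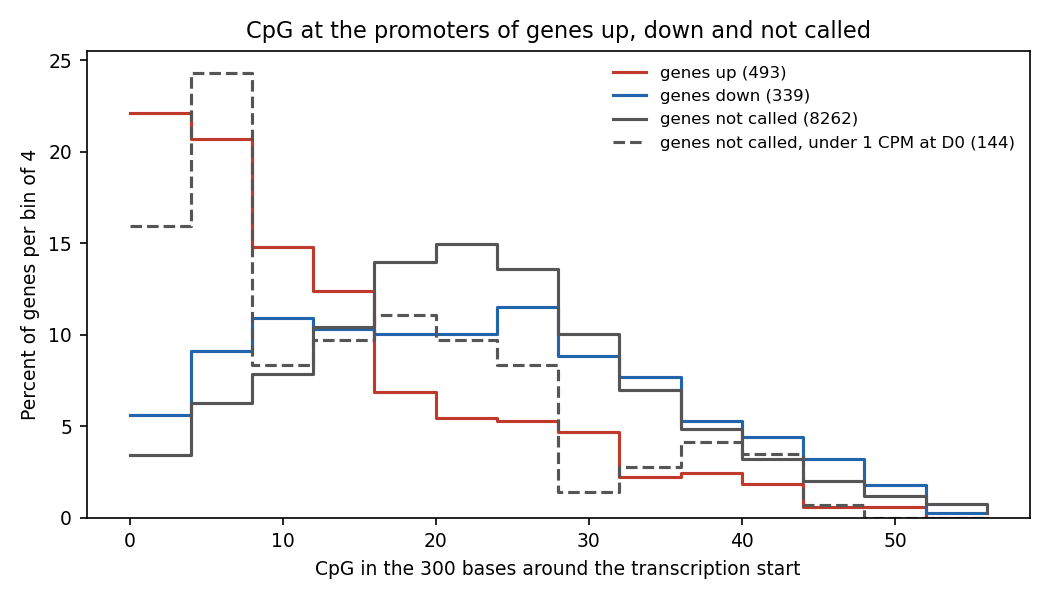
Share (percent) of genes by the number of CpG in the 300 bases around their start, for genes that rose, genes that fell and genes with no call between D0 and D6. The rising genes (n = 493, median 9) lie to the left of the falling genes (n = 339, median 21) and the uncalled genes (n = 8262, median 22).

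A place on the genome was found for 11351 of the genes. On the autosomes 5.51% of 10914 genes rose by over 4-fold and 3.91% fell. On the X chromosome 48 of 429 genes rose (11.2%) and 22 fell (5.13%). The Magea, Mageb, Rhox and Xlr genes made up 27 of the 48. That number is largely set by the row filter and counts near copies as separate genes. Among the other 398 X-linked genes 21 rose and 21 fell, 5.28% in each direction. Members of the Magea, Rhox and Xlr families lay side by side, in runs of called genes without an uncalled gene between them among those with a place. Tested genes without a place could lie inside a run. There were 10 Rhox genes in a row over 595.1 kb, 8 genes over 188.5 kb that held Pnma3 and Pnma5 beside Xlr genes, and 5 Magea genes over 139.3 kb. Runs of at least 4 such neighbours numbered 9 in the genome, of which 1 fell. It lay on chromosome 10 and held Lrrc3, Pfkl, Dnmt3l and Icosl within 182 kb, with a median log2 fold change of -3.04. Pfkl (-2.29) encodes a phosphofructokinase and lies beside Dnmt3l, and calls in these runs were lost for Pfkl (-1.97 without D0 replicate 1 and -1.96 without D6 replicate 1), Pnma3 (1.81 without D0 replicate 1 and 1.98 without D6 replicate 2) and Pnma5 (1.88 without D0 replicate 1).

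**Figure D4:**
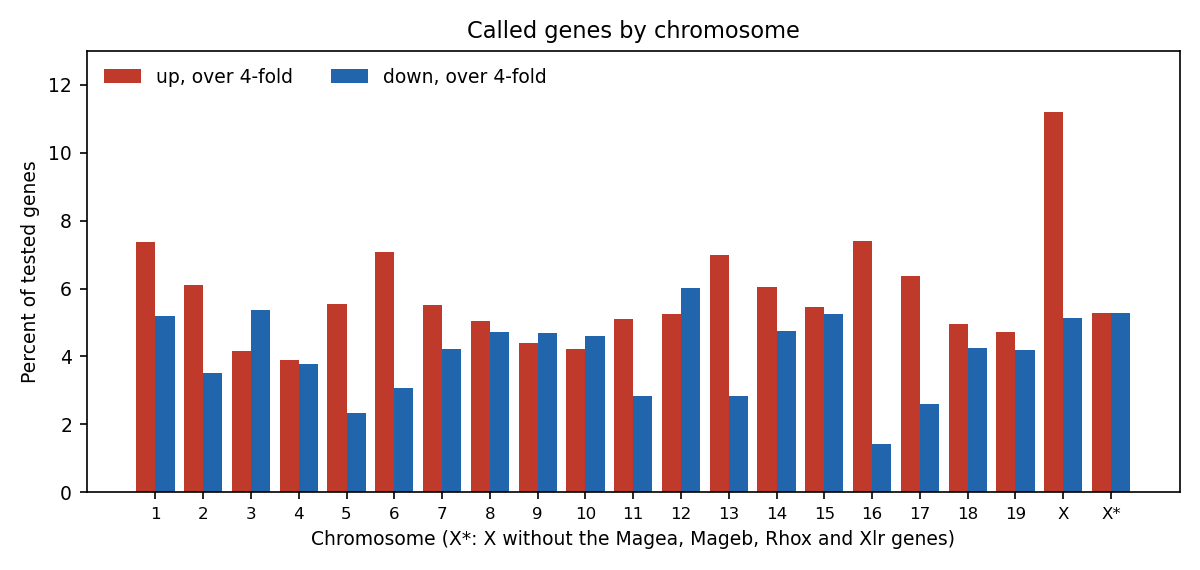
Percent of the genes placed on each chromosome that rose and that fell by over 4-fold between D0 and D6, with X* giving the X chromosome without the Magea, Mageb, Rhox and Xlr genes. The X chromosome has 11.2% of 429 genes rising, and 5.28% of 398 without these families, close to the 5.51% of the autosomes.

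On the Y chromosome 8 genes were measured, and they were examined after their values were seen. Uba1y, a ubiquitin-activating enzyme of male germ cells, rose from 14.9 and 22.9 CPM to 163 and 166 CPM (3.15, SE 0.247, limma adjusted p = 7.19e-05). Kdm5d, a histone demethylase, rose from 0.641 and 1.64 CPM to 23.8 and 24.1 CPM (4.55), and Usp9y (4.35), Zfy1 (2.83) and Zfy2 (3.96) rose as well. Uty, Ddx3y and Eif2s3y did not pass the test, with 100.3 and 84.6 CPM at D0 and 132 and 136 CPM at D6 for Ddx3y. Reads of Y genes can be shared with their X-linked partners. The call was lost for Zfy1 (1.48 without D0 replicate 1 and 2.77 without D6 replicate 1, adjusted p = 0.0537).

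Hox genes are silenced by Polycomb in ES cells. Of 8 with a row, 5 rose by over 4-fold, to low levels, a count that the row filter largely sets where a gene was silent at D0. Hoxc13 went from 1.08 and 0.888 CPM to 11.2 and 12.7 CPM (3.601, SE 0.294, adjusted p = 8.54e-05). Hoxc12 had 1 and 0 reads at D0 and 124 and 166 reads at D6, a ratio of 294 with a 95% counting interval of 52.3 to 11644. Hoxc4 (5.55), Hoxb13 (3.35) and Hoxd9 (2.40) were the others. On the log2(CPM + 1) scale 1 of the 8 rose by over 4-fold. The call was lost for Hoxd9 (1.88 without D0 replicate 2 and 2.04 without D6 replicate 1, adjusted p = 0.179).

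Among imprinted genes, which are expressed from the copy of a single parent, most of those that moved fell. Of 34 with a row, 14 fell by over 2-fold and 12 by over 4-fold, against 8.87% and 3.9% of all genes. By over 2-fold 3 rose, against 11.8% of all genes, and the median log2 fold change was -0.92. Peg10, a paternally expressed gene derived from a retrotransposon, fell from 899.7 and 338 CPM to 21.4 and 17.3 CPM (-4.84, SE 0.419, adjusted p = 0.000113). Phlda2, a placental growth restrictor, fell from 78.6 and 42.4 CPM to 2.16 and 1.59 CPM (-4.96), and the CDK inhibitor Cdkn1c from 76.9 and 16.9 CPM to 2.505 and 1.95 CPM (-4.03). The neighbours Igf2 and H19, which are expressed from opposite parental copies, fell together. Igf2 had 108 and 27.2 CPM and then 9.54 and 4.13 CPM, and H19 had 52 and 10.3 CPM and then 5.56 and 1.32 CPM. Both varied between replicates on both days. Rian, of the Dlk1-Dio3 domain, fell from 526 and 556 CPM to 118 and 144 CPM (-2.06). The 3 that rose were Plagl1, from 16.2 and 6.91 CPM to 93.3 and 113 CPM (3.28), and the neighbours Usp29 (2.48) and Zim3 (5.59). Between 9 and 12 members fell by over 4-fold when 1 D0 or D6 library was left out, and calls were lost for Igf2 (-2.12 without D0 replicate 1, adjusted p = 0.059), H19 (-1.93 without D0 replicate 1 and -3.10 without D13 replicate 1, adjusted p = 0.0579 and -3.10 without D13 replicate 2, adjusted p = 0.057 and -2.06 without D6 replicate 2, adjusted p = 0.114) and Rian (-1.91 without D6 replicate 1).

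Genes of lipid synthesis rose in part. Of 20 genes of fatty acid synthesis and desaturation, 9 rose by over 2-fold and 4 by over 4-fold. The shares over all genes were 11.8% and 5.91%, and the median log2 fold change of the list was 0.89. The stearoyl-CoA desaturase gene Scd2 went from 542 and 174 CPM to 1689 and 1765 CPM (2.49, SE 0.45, limma adjusted p = 0.0042) and its relative Scd1 from 90.3 and 29.2 CPM to 514 and 439 CPM (3.21, SE 0.44). Elovl7, an elongase, rose from 4.61 and 7.85 CPM to 48.4 and 38.5 CPM (2.84), and Acss2, which makes acetyl-CoA from acetate, from 4.69 and 13.4 CPM to 45.4 and 34.6 CPM (2.32). Fasn, the synthase itself, had overlapping values of 896 and 486 and 647 and 892 CPM. The call was lost in Scd2 (1.67 without D0 replicate 2) and Acss2 (1.56 without D0 replicate 1).

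Of 28 genes of cholesterol synthesis and uptake, 10 rose by over 2-fold, against 11.8% of all genes. The median log2 fold change was 0.89. Msmo1, a sterol oxidase, went from 84.2 and 35.6 CPM to 294 and 252 CPM (2.31). The serum replicates differed in this group. D0 replicate 1 had the higher value in 26 of the 28 genes, and 12 were over 2-fold apart between the D0 replicates. By over 4-fold, 2 genes rose with all samples, 6 when D0 replicate 1 was left out and 0 when D0 replicate 2 was, with Msmo1 (1.69 without D0 replicate 2). The part of the difference between serum cultures in this result was not tested.

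Genes of fatty acid oxidation rose in part, and in 20 of the 21 the serum replicates lay within 2-fold of each other. By D6, 8 had risen by over 2-fold, against 11.8% of all genes, with a median log2 fold change of 0.72. Acadm, the medium-chain dehydrogenase, went from 94.98 and 80.2 CPM to 304 and 295 CPM (1.78, adjusted p = 0.000627), and Cpt1a, which brings fatty acids into mitochondria, from 19.3 and 64.1 CPM to 183 and 171 CPM (2.33). Among 77 subunits of the respiratory chain and ATP synthase 75 had a higher mean at D6, against 6197 of all 12626 genes. Most of these rises were small, with a median log2 fold change of 0.50. The serum replicates also differed across these genes, D0 replicate 1 being higher in 60 of the 77, with a median log2 difference of 0.28. By over 2-fold 7 rose, a smaller share than the 11.8% of all genes, among them the isoform genes Cox6b2 (2.59) and Cox7a1 (2.22), known from testis and heart or muscle. Of 26 genes of the TCA cycle and pyruvate entry, 23 had a higher mean at D6 and 4 rose by over 2-fold, against the same 11.8%. D0 replicate 1 was higher than D0 replicate 2 in 19 of these 26. Mpc1, a subunit of the mitochondrial pyruvate carrier, rose from 7.26 and 4.68 CPM to 27.9 and 28.2 CPM (2.27). Without a library the call was lost for Cpt1a (1.46 without D0 replicate 1), Cox7a1 (1.97 without D6 replicate 1) and Mpc1 (1.95 without D0 replicate 2).

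Glycolysis genes were divided. Of 28, 6 fell by over 2-fold and 3 rose, against 8.87% and 11.8% of all genes, with a median log2 fold change of -0.08. Slc16a3, the lactate exporter, fell from 144 and 61.6 CPM to 4.38 and 11.6 CPM (-3.72, SE 0.505, adjusted p = 0.00098), and Pdk1, which holds pyruvate back from the mitochondria, from 206 and 291 CPM to 33.4 and 44.7 CPM (-2.66). Pfkl fell from 289 and 186 CPM to 37.5 and 59.6 CPM. Hk1 rose from 25.1 and 49.5 CPM to 253 and 240.4 CPM (2.81). Ldha, the lactate dehydrogenase, did not pass the test (-1.34, adjusted p = 0.0693), with 1365 and 489 CPM in the serum samples and 243 and 429.8 CPM at D6. Pdk1 is also a target of the hypoxia factor HIF, and with it the HIF prolyl hydroxylase Egln3 (-2.56) and P4ha2 (-2.33) fell. Vegfa, with D0 values of 6.76 and 34.1 CPM, rose to 63.5 and 63.6 CPM (2.06). The 23 hypoxia and HIF targets had a median log2 fold change of -0.13. By over 2-fold 6 of them fell and 2 rose, against 8.87% and 11.8% of all genes, and 15 were not called. Library by library, calls were lost for Pfkl (-1.97 without D0 replicate 1 and -1.96 without D6 replicate 1) and Vegfa (0.90 without D0 replicate 1 and 2.06 without D13 replicate 1, adjusted p = 0.0755 and 2.06 without D13 replicate 2, adjusted p = 0.0751).

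Of 37 genes of serine and folate metabolism and of the ATF4 response, 8 rose by over 2-fold, against 11.8% of all genes. Aldh1l1, a folate enzyme, rose from 2.405 and 3.84 CPM to 56.5 and 40.5 CPM (3.98, SE 0.335, adjusted p = 9.96e-05). Asns, asparagine synthetase, had 112 and 395 CPM at D0 and 889.6 and 822 CPM at D6 (2.02), and Slc7a1, a cationic amino acid transporter, had 31.1 and 86.4 and 201 and 240.3 CPM (2.08). Here the serum replicates differed the other way from the cholesterol genes. D0 replicate 1 was higher in 5 of the 37 and 17 were over 2-fold apart, the widest gap being that of Chac1, a target of the ATF4 stress response, with 1.73 and 54.6 CPM. By over 4-fold, 3 genes rose with all samples, 1 when D0 replicate 1 was left out and 10 when D0 replicate 2 was, and the losses were Asns (1.11 without D0 replicate 1 and 1.97 without D6 replicate 1) and Slc7a1 (1.35 without D0 replicate 1 and 1.96 without D6 replicate 2). Outside this list, Bcat1, the cytosolic branched-chain aminotransferase, rose from 177 and 188 CPM to 830.3 and 909 CPM (2.25, adjusted p = 0.000161), and Bhmt, which remethylates homocysteine with betaine, rose from 5 and 6 reads to 2261 and 1480 reads (8.28). Ckb, brain-type creatine kinase, rose from 139.8 and 119.6 CPM to 945 and 859 CPM (2.80).

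Lysosomal genes rose by smaller steps. Of 32, 12 rose by over 2-fold and 1 by over 4-fold, against 11.8% and 5.91% of all genes. The median log2 fold change was 0.39 and the highest 2.16. Outside these 32, the lysosomal protease gene Ctsc, counted with the cathepsins, rose from 14.9 and 13 CPM to 128 and 57.9 CPM (2.63). Of 23 redox and metallothionein genes 6 rose by over 2-fold and 2 fell, against 11.8% and 8.87% of all genes. Nqo1 went from 38.4 and 14.3 CPM to 108 and 123 CPM (2.30), and Hmox1, heme oxygenase, fell from 292 and 125 CPM to 55.5 and 63.6 CPM (-1.69). Solute carriers changed in both directions, 39 of 201 up and 22 down by over 2-fold, against the same shares of all genes. The zinc and iron importer Slc39a14 fell from 163 and 199 CPM to 6.68 and 10.4 CPM (-4.43, adjusted p = 8.34e-05). Of 17 serpins, inhibitors of proteases, 9 rose by over 4-fold, against 5.91% of all genes. The row filter largely sets this count where a gene was silent at D0, and on the log2(CPM + 1) scale 5 rose by over 4-fold. Serpina3m went from 0.476 and 0.178 CPM to 70.4 and 71.1 CPM (7.93), with near copies beside it. Calls were lost for Nqo1 (1.58 without D0 replicate 2).

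Part of the cytoskeletal genes fell. Of 35 actin, SRF and YAP target genes, 15 fell by over 2-fold and 10 by over 4-fold, against 8.87% and 3.9% of all genes. The median log2 fold change was -0.69. D0 replicate 1 had the higher value in 31 of the 35, and 7 were over 2-fold apart between the D0 replicates. The median log2 difference, D0 replicate 1 minus D0 replicate 2, was 0.44. Tagln, an actin-binding SRF target, fell from 79.5 and 30.3 CPM to 1.74 and 1.19 CPM (-5.09, SE 0.839, limma adjusted p = 0.00262). Flnc, a filamin, fell from 53.8 and 40.3 CPM to 1.97 and 1.898 CPM (-4.59, SE 0.361), and Zyx (-3.19), a focal adhesion protein, Cnn2 (-2.82), Tpm2 (-2.81) and the YAP target Ctgf (-2.40) fell with it. Vim, an intermediate filament gene, rose from 107 and 26.6 CPM to 236 and 347 CPM (2.42). All 5 keratins with a row fell by over 2-fold. Krt18 went from 74.2 and 47.1 CPM to 3.74 and 3.14 CPM (-4.11) and its partner Krt8 from 90.8 and 60.1 CPM to 11.2 and 11.7 CPM (-2.69). The call was lost for Vim (1.42 without D0 replicate 2).

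Of 38 collagens, laminins and matrix genes, 12 fell by over 2-fold and 11 by over 4-fold, against 8.87% and 3.9% of all genes. By over 2-fold 5 rose, against 11.8% of all genes. The summed level of the list was 4247 and 5026 CPM at D0 and 4975 and 4979 CPM at D6. Col18a1, a basement membrane collagen, fell from 462 and 469 CPM to 54.1 and 73.2 CPM (-2.89, SE 0.243, adjusted p = 9.96e-05), the laminin chain Lamb1 from 164 and 195 CPM to 12.8 and 16.1 CPM (-3.64), and the metalloprotease inhibitor Timp3 from 21.2 and 21.5 CPM to 1.02 and 1.71 CPM (-4.01). Nid1, which links laminin to collagen, went the other way, from 68.3 and 90.8 CPM to 536 and 542 CPM (2.77, SE 0.247), as did Lama3 (3.24). Spp1, osteopontin, rose from 155 and 211 CPM to 788 and 711 CPM (2.05). The call was lost for Spp1 (1.83 without D0 replicate 1 and 1.98 without D6 replicate 1).

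Of 31 cell adhesion and junction genes, 7 fell and 6 rose by over 2-fold, against 8.87% and 11.8% of all genes. E-cadherin did not pass the test. Cdh1 had 868 and 1021 CPM at D0 and 1109 and 1045 CPM at D6 (0.19, adjusted p = 0.608). Epcam fell from 229 and 231 CPM to 38.9 and 40.9 CPM (-2.53, SE 0.214, adjusted p = 0.000101) and the claudin Cldn6 from 94.3 and 94.03 CPM to 11.5 and 8.302 CPM (-3.27). Esrp1, an epithelial splicing regulator, was among the strongest falls of all, from 104 and 107 CPM to 0.945 and 1.37 CPM (-6.53, SE 0.315, adjusted p = 8.09e-06). Ncam1 (2.32) and Zeb1 (2.08), known from cells with less epithelial character, rose from D0 values of 4.69 and 8.58 and 4.28 and 9.61 CPM. Among axon guidance genes, Sema6a went from 44.7 and 32.4 CPM to 0.9704 and 1.17 CPM (-5.16). The losses of call were Ncam1 (1.89 without D0 replicate 1) and Zeb1 (1.495 without D0 replicate 1 and 2.00 without D6 replicate 2).

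Other strong falls lay outside these groups. Myrf, a membrane-bound transcription factor, had 111 and 113 CPM in serum and 0.856 and 1.63 CPM at D6 (-6.57, SE 0.369, limma adjusted p = 1.73e-05). Foxp1, a forkhead factor, had 143 and 164 CPM and then 2.09 and 1.35 CPM (-6.52), the kinesin Kif1a 54.2 and 50.9 CPM and then 1.49 and 0.887 CPM (-5.51), and the adhesion receptor Lphn2 103 and 79.2 CPM and then 2.77 and 2.29 CPM (-5.16). Sox11 fell from 87.8 and 111 CPM to 5.17 and 1.19 CPM (-5.32), and Trh, the thyrotropin-releasing hormone precursor, from 584 and 229 CPM to 15.5 and 33.3 CPM (-4.01). Rlim, an X-linked ubiquitin ligase known for its part in X inactivation, fell from 406 and 655 CPM to 114 and 118 CPM (-2.16, adjusted p = 0.00113). Among the genes that rose from near silence, Saa4, a serum amyloid gene, had 0 reads in both D0 samples and 179 and 150 reads at D6, at least 111-fold higher. 1700013H16Rik went from 0.273 and 0.166 CPM to 76.3 and 77.8 CPM (8.50, SE 0.311). Only the Rlim call among these was lost without a D0 or D6 library, as Rlim (-1.81 without D0 replicate 2).

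Both Myc genes fell, while genes of replication and mitosis stayed within 2-fold of their serum level. Of 20 Myc and Max network genes, Myc went from 93.8 and 43.6 CPM to 1.58 and 3.43 CPM and Mycn from 411 and 386 CPM to 88.5 and 103 CPM (-2.06, adjusted p = 0.00021). Of 22 insulin, PI3K and FoxO genes 8 fell by over 2-fold, against 8.87% of all genes. Among them the binding protein gene Igfbp3 fell from 67.8 and 30.9 CPM to 4.33 and 5.25 CPM (-3.26). The 26 replication and mitosis genes had log2 fold changes between -0.93, for Mki67, and 0.92, and Pcna had overlapping values (0.15). Cdkn1a, the p21 CDK inhibitor and a p53 target, rose from 33.6 and 33.4 CPM to 201 and 184 CPM (2.52, SE 0.195, adjusted p = 7.11e-05), and Cdkn2c rose from 0.476 and 0.475 CPM to 2.61 and 2.42 CPM (2.40). The p53 regulator Mdm2 had overlapping values (0.04), and Trp53 itself fell from 571 and 552 CPM to 275 and 324 CPM (-0.91, adjusted p = 0.0124). The 78 cytosolic ribosomal protein genes had log2 fold changes between -0.62 and 0.51 (median 0.09), and the 77 mitochondrial ones between -0.55 and 0.93 (median 0.13). The Mycn call missed 4-fold in Mycn (-1.96 without D6 replicate 1).

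Markers of other cell types were examined as well. Of 13 primitive endoderm markers with a row 6 fell by over 4-fold and the other 7 had a higher mean at D6 without being called, and the median log2 fold change of the list was 0.09. Those that fell included the endocytic receptor gene Lrp2, from 192 and 191 CPM to 8.78 and 14.7 CPM (-4.08, adjusted p = 0.000252), and Dab2, from 15.9 and 16.8 CPM to 0.653 and 1.02 CPM (-4.33). The endoderm factor Sox17 stayed near 1 CPM, with 0.653 and 1.197 CPM at D0 and 0.882 and 1.11 CPM at D6. The summed level of the 13 markers was 989.7 and 1239 CPM at D0 and 873 and 771 CPM at D6. On the log2(CPM + 1) scale 4 of the 13 fell by over 4-fold, and fewer fell without D0 replicate 2 or without D6 replicate 1 than with all samples. Trophoblast markers with a row numbered 11 of 22, with sums of 1015 and 527 CPM and 206 and 210.4 CPM. The fall of this sum was not shared by the list, of which 2 rose and 3 fell by over 2-fold and 5 had a higher mean at D6 (median log2 fold change -0.17). Neuroectoderm markers with a row numbered 7 of 22, with sums of 251 and 194 CPM and 144 and 165 CPM. Mesoderm markers with a row numbered 6 of 20, with D0 sums of 23.3 and 9.83 CPM and both D6 sums between these values, and fibroblast markers 6 of 14, with sums of 66.1 and 47.5 CPM and 17.4 and 17.6 CPM. A smaller share of cells of a type and less RNA per cell cannot be told apart in such bulk samples, and the part of differentiating cells in the falls described above was not tested.

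Among 28 nucleic acid sensing and interferon genes, 5 rose and 5 fell by over 2-fold, against 11.8% and 8.87% of all genes. Oas1a, an antiviral synthetase with near copies beside it, rose from 2.75 and 2.53 CPM to 59.1 and 66.1 CPM (4.57, SE 0.265, adjusted p = 2.09e-05), while Ifit2 fell from 9.45 and 5.02 CPM to 0.882 and 1.29 CPM (-2.69), and the sensor Ddx58 (-0.28) had overlapping values. Of 30 two-cell-stage genes 8 had a row, of which 2 rose and 1 fell by over 2-fold, against the same shares of all genes. The median log2 fold change was 0.09. Means were higher at D6 in 4 of them and lower in 4. Trim43a, which passed 4-fold, rose from 0.425 and 0.349 CPM to 4.7 and 4.401 CPM (3.56). Genes of this stage active in serum alone and silent on both later days could not have a row. Of 26 chaperones, 24 stayed uncalled at 2-fold, and Hspb8 rose from 14.9 and 25.6 CPM to 138 and 147 CPM (2.87). The call of Ifit2 (-2.24 without D0 replicate 1, adjusted p = 0.204 and -3.15 without D0 replicate 2, adjusted p = 0.0849 and -2.42 without D6 replicate 1, adjusted p = 0.124) was the only one here to depend on a library.

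**Figure D5:**
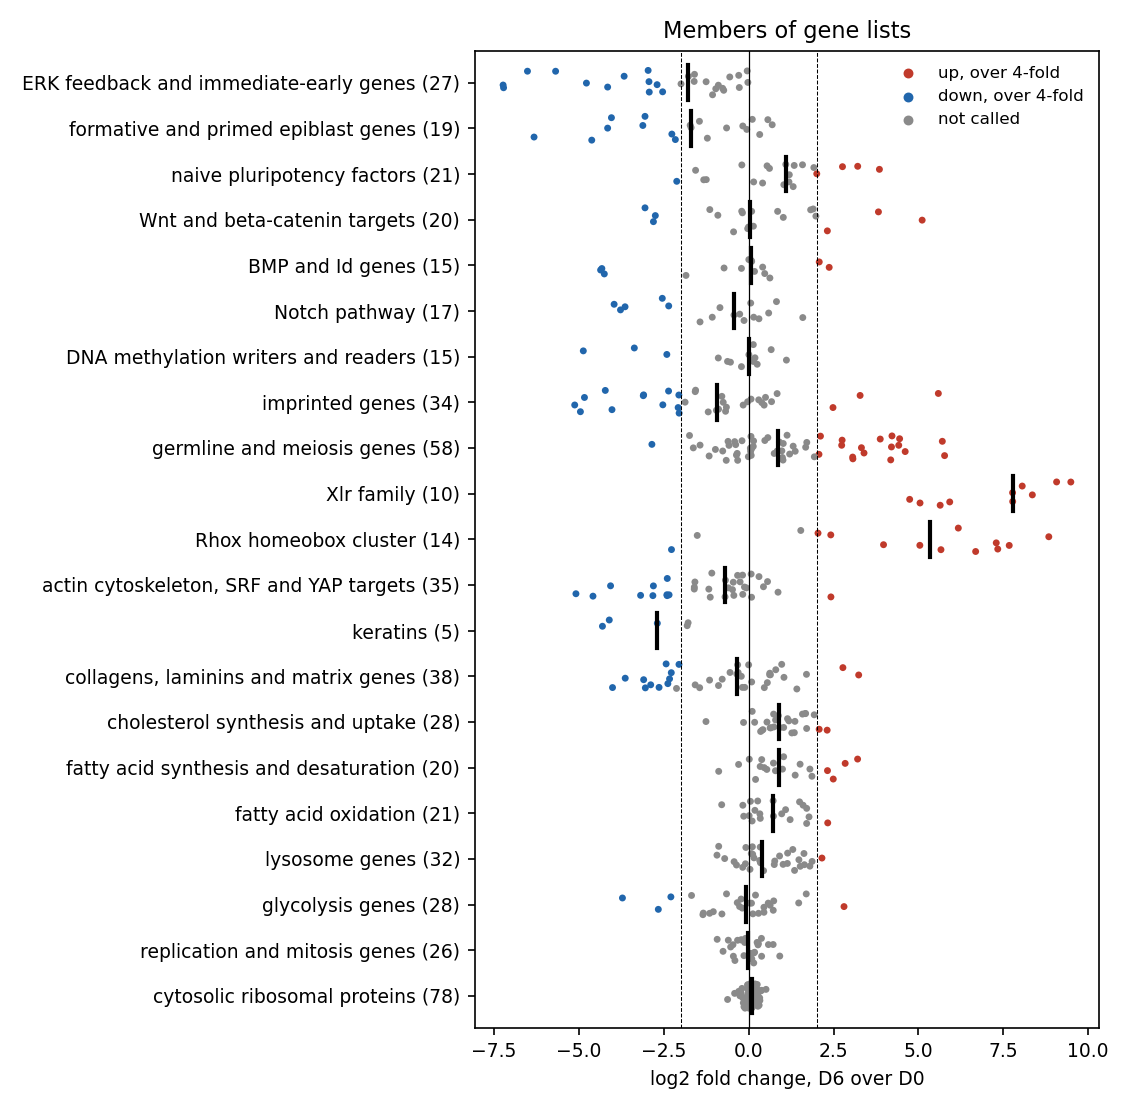
Log2 fold change (D6 minus D0, x axis) of every member of selected gene lists, each list in a row of its own, with the members called at 4-fold in colour and the median as a bar. The ERK and formative lists lie to the left (medians -1.78 and -1.70), the Xlr family to the right (median 7.78), and the ribosomal proteins near 0 (median 0.09), while fitted values of genes with 0 to 3 D0 reads depend on the offset of 0.5 reads.

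As context, the transposon families read from the same libraries moved mostly upwards. Of 302 families, 39 rose by over 2-fold (12.9%) and 0 fell (0%), with limma adjusted p under 0.05, and 1 fell at an unadjusted p under 0.05. Without D6 replicate 1 the number that rose was 21. The largest rise was that of IAPEy-int, an endogenous retrovirus, with log2 CPM of -1.84 and -2.27 at D0 and of 6.99 and 5.07 at D6.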

How the data were processed

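RNA was taken from J1 ES cells at D0, D6 and D13 of conversion, as 2 biological replicates a day, and sequenced as paired ends from TruSeq Stranded mRNA libraries. The authors mapped reads to mm10 with TopHat (TopHat2 2.0.6 in the submitters' processing notes) and counted them on RefSeq genes with HTSeq 0.6.1. For transposon families they mapped reads with Bowtie 1.0.0 and weighted each read by its number of sites. The deposited values are log2 CPM, made by the authors with TMM scaling and voom, which adds 0.5 reads. How HTSeq treated reads with several sites is not given in the sources used here. Each gene value was a whole read count within 0.02 reads, from which reads were recovered, whereas family values rest on weighted reads.

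limma 3.58.1 (R 4.3.3) was fitted with a mean-variance trend to the deposited log2 CPM of all 6 samples, with 1 coefficient a day, and the D6 minus D0 contrast was adjusted by the Benjamini-Hochberg method over 12928 rows. Genes were called past 4-fold and families past 2-fold, at an adjusted p under 0.05. On data simulated for this contrast over 12928 rows, with 200 genes changed, 88% were recovered at a log2 change of 3 and 97% at 5. With 0 reads at D0, a bound was set from 3 reads over the group, and with 1 to 3 reads a 95% interval, covering counting error only.

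Names in the files lack each capital G with the character after it. The names were not restored, genes so affected were tested but not named or placed in lists, and 11917 rows kept a full name of their own. Named genes were the 12 largest called changes in each direction, the 10 largest gains and losses of CPM, and the key and up to 6 leading called members of each list. A few items are not reported here. The text names 216 genes, of which 31 were chosen after their values were seen, among them Klf4, Etv5, Jun, Spry1, Rhox5, Plagl1, Vim, Trp53 and the Y-linked genes. Samples, members and gene lists were chosen with earlier results of these data known. Alternatives were other samples, weights, filters, scales, thresholds and left-out replicates.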

Additional observations from a re-analysis of the deposited data

How the results depend on the processing

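Of 170 called genes that the text names, 116 were called under each of the 16 settings that kept their row, and none changed sign. The filter on a mean log2 CPM over 0 removed some genes near 0 reads in serum, such as Magea8. Those genes were not tested under it. The 746 genes that rose became 420 on the log2(CPM + 1) scale and 330 with at least 1 CPM on both days, a filter chosen after seeing the data. At 2-fold 1492 rose and 1120 of the falling direction were called. With 1 replicate left out, a lone sample being assumed to vary like the others, 671 to 864 genes rose and 456 to 513 fell, and 620 to 730 of the 746 and 421 to 486 of the 492 remained called. The 39 transposon families were 23 at an adjusted p under 0.01, 24 with at least 1 CPM on both days and 21 to 38 with a replicate left out. The 0 families that fell became 1 at an unadjusted p, 0 to 1 with a replicate left out and 1 with the replicate block. The replicate number as a block gave 755 genes up, 504 down and 42 families up, with all 746 and 492 calls kept, although the samples share only a number. Across genes, deviations of samples with the same number correlated at r = -0.13 between D0 and D6, 0.137 between D0 and D13 and 0.329 between D6 and D13. Requiring 10 reads in 2 samples removed no gene. Uncalled genes changed sign when a replicate was left out, with these ranges of log2 fold change: Ccnd1 (-0.42 to 0.33), Chac1 (-1.82 to 3.15), Ddx58 (-0.65 to 0.080), Eif2s3y (-0.069 to 0.19), Fasn (-0.24 to 0.64), Klf2 (-0.33 to 1.15), Mdm2 (-0.18 to 0.27), Pcna (-0.17 to 0.46), Pou5f1 (-0.28 to 0.033), Sox17 (-0.28 to 0.60), Stat3 (-0.17 to 0.51), Sycp3 (-0.23 to 0.38), Tet2 (-0.11 to 0.99) and Zfp42 (-0.28 to 0.57). Mdm2 was -0.009 when centred on the median gene. The cause was not tested. Depth limits only the genes near 0 reads at D0, where 3 reads are 0.0344 to 0.0381 CPM. Serum-only genes could not be seen after the row filter.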

Other observations

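Among runs of neighbouring called genes outside the X chromosome, 4 Smok kinase-like and Rik genes on chromosome 17 rose over 332.9 kb (median log2 fold change 6.80), 4 Serpina3 genes on chromosome 12 over 146.4 kb (6.44) and 4 Oas1 genes on chromosome 5 over 74.3 kb (3.95). Each run holds near copies whose reads may be shared. Lactb2, Xkr9, Eya1 and Msc on chromosome 1 rose over 1130.2 kb (2.35), and Anxa8, Fam25c, Sncg and Mmrn2 on chromosome 14 over 318.3 kb (2.76). These runs were found by scanning all placed genes, and no chance level was set for them.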
